A study of Mus musculus with 9 samples.

Results

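Tail skin of mice with a healed surgical incision, made without lymphatic ablation, was compared with tail skin of mice that had not been operated on. The comparison used the 3 arrays of surgical sham skin and the 3 arrays of normal skin, 6 of the 9 arrays of the study, each chosen by its title. All mice were female hairless, immunocompetent SKH-1 mice 3 wk old. Sham animals had the tail skin cut around its circumference 16 mm distal to the base and received methylene blue under the skin, but their lymphatic trunks were not cauterised. Normal animals had no surgical manipulation. The 3 remaining arrays carried skin in which the trunks had been cauterised (lymphedema), and they entered the fit only to help estimate the spread. Skin distal to the tissue taken for histology was collected on day 14 and was freed from the tail cartilage by blunt dissection. The histology tissue included the incision, so by the study's array methods the profiled skin lay distal to the wound. Each array carried RNA pooled from 3 mice against e17.5 whole embryo RNA as the reference, so that 9 mice stood behind each group. No label says whether the pools of a group were collected or hybridised together, and p-values measure the spread between pools.

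Wounded skin passes through overlapping stages. Platelets and damaged keratinocytes release chemokines and alarmins, neutrophils and then macrophages enter, and keratinocytes at the wound edge switch on growth factors and stress keratins while they migrate. Fibroblasts, some of which take on smooth muscle actin, lay down fibronectin, tenascin C and collagen, and the new matrix is later remodelled by proteases while the leukocytes leave. Hair follicles and sebaceous glands supply cells for the closure of the epidermis. An incision without cautery therefore serves as the control for what surgery itself does to the skin.

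The deposited values are log2 ratios, and their direction had to be read from the data. The labels assign Cy5 to tail skin and Cy3 to the embryo, whereas the study's methods name the dyes the other way round. In the values as deposited, 26 genes of embryonic blood, cartilage, muscle and imprinted growth control had medians of 3.75 to 4.14 on the 6 arrays, and 15 genes of adult epidermis had medians of -2.64 to -2.02. The deposited ratio thus ran as embryo over tail skin, opposite to what the dye labels give for Cy5 over Cy3. Every value below has its sign turned, so that a level is log2 of tail skin over embryo after each array was centred on its median, and a difference is sham minus normal on that scale. A difference of 1 is a doubling in skin relative to the reference.

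The sham arrays were not interchangeable. Among the 30702 features measured on each of the 9 arrays, levels on sham arrays 1 and 2 correlated at r = 0.906, those on arrays 2 and 3 at 0.871 and those on arrays 1 and 3 at 0.818, while pairs of normal arrays correlated at 0.930 to 0.960. These features share the reference RNA and the arrays, so the values only describe how alike the arrays were. The SD over features of an array's difference from normal skin was 0.579, 0.464 and 0.494 on sham arrays 1, 2 and 3, and 0.412, 0.318 and 0.341 for each normal array against the other two. Part of the disagreement followed the numbering of the features. In runs of 900 consecutive feature numbers, the median difference of sham array 1 from normal skin went from -0.37 at the low end of the numbering to 0.42 at its high end, the numbering being divided into 3 equal parts. On sham array 2 it went from -0.034 to 0.34, and on sham array 3 the opposite way, from 0.24 to -0.18. The normal arrays, each set against the mean of all 3, kept every run between -0.22 and 0.34. What the numbering stands for on the slide is not given in the sources used here, and its part in each difference was not tested. Values after each run was centred on its own median, called run-centred below, are therefore given beside part of the statements they change.

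**Figure D1:**
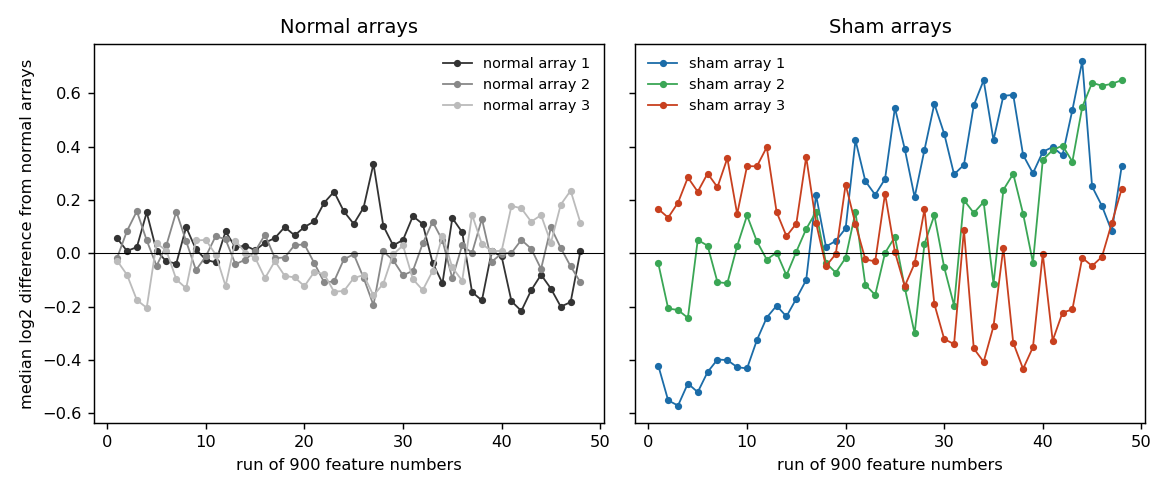
Median log2 difference from the mean of the 3 normal arrays (y axis) in each of 48 runs of 900 consecutive feature numbers (x axis), with normal arrays on the left, sham arrays on the right and 1 line for each array. Sham array 1 climbed from a lowest run of -0.57 to a highest of 0.72, sham array 3 ran the other way between 0.40 and -0.43, and the normal arrays stayed near 0.

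Missing values also divided the arrays. A set of 186 features had values on exactly 4 arrays, the normal ones and the first of lymphedema, 1 feature had values on exactly the other 5, and no other way of dividing 4 arrays from 5 gave more than 45. All sham arrays therefore lay in one of these sets and all normal arrays in the other, and a difference between the sets cannot be told apart from sham against normal except through the lymphedema arrays.

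Few differences between sham and normal skin passed the test. With limma across all features and Benjamini-Hochberg adjustment at 0.05, 6 of 30702 features were higher in sham skin (0.0195%) and 0 were lower (0%). The same fit reached an unadjusted p under 0.05 for 1643 features that were higher and 743 that were lower. Over 8644 named genes, each the mean of its cDNA clones, 0 passed (0%), with 479 higher (5.54%) and 206 lower (2.38%) at an unadjusted p under 0.05. All 3 sham arrays lay above all 3 normal arrays for 840 genes (9.72%) and below them for 267 (3.09%). Taken singly, sham arrays 1, 2 and 3 lay above all normal arrays for 44.4%, 39.3% and 35.9% of genes and below them for 28.9%, 25% and 27.7%, which are the shares to set beside counts for 1 array. Scaling moved this balance, since quantile normalisation gave 579 genes above and 416 below, run-centring gave 819 above and 475 below, and the values without centring gave 707 and 329. At an unadjusted p under 0.05, quantile normalisation gave 342 genes higher and 316 lower, and run-centring 529 and 371. Run-centring also let 3 genes pass (0.0347%), namely Cd160, Hbb-y and Fap. Genes with a value on all 6 sham and normal arrays included 1 that passed, Klhl13, an adaptor of a ubiquitin ligase named after its values were seen, which differed by 3.64 ± 0.30 (SE) with an adjusted p of 0.0074. The median difference over all genes was 0.058 and the median SE of a gene was 0.22.

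One of the features that passed had a second clone of its gene at a like value, and it belonged to skeletal muscle. Tnnt3, fast skeletal muscle troponin T, had levels on this feature of -5.47, -5.61 and -5.27 in normal skin and -3.67, -3.81 and -2.93 in sham skin. The groups did not overlap, and the difference was 1.98 ± 0.29 (SE) with an adjusted p of 0.0458 by limma. Lymphedema arrays 1, 2 and 3 lay between the groups on this feature, at -4.94, -4.64 and -3.98, with array 1 nearest the normal arrays. Another Tnnt3 clone differed by 1.99 (adjusted p = 0.131), and the other 3 clones of the gene by 0.062 to 1.33. In pooled skin, more cells of a type and more RNA per cell cannot be told apart. Hba-x, the embryonic zeta chain of hemoglobin, rose by 1.77 ± 0.27 (SE) on one clone (adjusted p = 0.0458), from -4.51, -4.66 and -4.50 to -2.62, -2.53 and -3.22. On this clone lymphedema array 1 lay among the normal arrays, at -4.52. Lymphedema arrays 2 and 3, at -3.76 and -3.85, lay between the normal and sham arrays. The clone thus followed in part the division seen in the missing values. The other Hba-x clone went the other way by -0.30.

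The 4 remaining features that passed had differences of 3.26 to 6.70 and followed the division of the arrays seen in the missing values more fully than Hba-x. A clone of H19, an imprinted noncoding RNA of the embryo, stood at -6.59, -9.37 and -6.29 in normal skin and at 0.28, -1.39 and -1.04 in sham skin (difference 6.70 ± 1.03 (SE), adjusted p = 0.0489). A clone of Hbb-y, an embryonic beta-type globin, stood at -3.90, -3.83 and -3.79 and at 1.57, 1.73 and 1.05 (difference 5.29 ± 0.70 (SE), adjusted p = 0.0249). On both clones lymphedema array 1 lay with the normal arrays, at -5.32 and -3.04, and lymphedema arrays 2 and 3 lay with the sham arrays. The other 7 H19 clones differed by -0.24 to 1.53 and the other 5 Hbb-y clones by 0.20 to 0.67. Feature 36246, which has no gene name here, stood at -7.21, -7.26 and -6.40 in normal and -1.69, -0.73 and -2.17 in sham skin (difference 5.43 ± 0.74 (SE), adjusted p = 0.0249). Feature 40723, also unnamed, stood at -3.51, -3.51 and -3.01 and at -0.11, 0.39 and -0.53 (difference 3.26 ± 0.41 (SE), adjusted p = 0.0249). Both divided the arrays as H19 and Hbb-y did, with lymphedema array 1 nearest the normal arrays. None of the 6 features passed after run-centring, where their adjusted p lay between 0.073 and 0.21, and none passed with the missing-value sets as a block, where their differences were 1.05 to 1.88.

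Hbegf, Serpinb3a and Wnt7b were above normal skin on all 3 sham arrays. Hbegf, a growth factor that keratinocytes release when they migrate, had levels of 0.80, 0.56 and 0.76 in normal and 2.03, 2.39 and 1.62 in sham skin. The groups were well separated, with a difference of 1.30 ± 0.23 (SE) and an adjusted p of 0.193. Serpinb3a, a protease inhibitor of stratified epithelia, stood at 1.87, 1.78 and 1.61 and at 3.01, 2.39 and 2.85 (difference 0.99 ± 0.20 (SE), adjusted p = 0.196). Wnt7b, a Wnt ligand made in the epidermis, stood at 1.77, 1.41 and 1.54 in normal and 2.73, 2.56 and 2.66 in sham skin (difference 1.08 ± 0.21 (SE), adjusted p = 0.196). The 3 sham values of Wnt7b spanned less than the 3 normal ones. None of these genes passed the adjusted threshold, and all had an unadjusted p under 0.05.

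Of 12 measured genes of wound-activated keratinocytes, 3 were higher and 1 was lower at an unadjusted p under 0.05, beside 5.54% and 2.38% of all genes. The list median was 0.36, 0.25 and 0.22 on sham arrays 1, 2 and 3, and 0.11, 0.065 and 0.043 over all genes. For the mean of the arrays it was 0.36, but 0.067 with the missing-value sets as a block. Cd44, a hyaluronan receptor, differed by 0.47 ± 0.21 (SE), but by -0.015 with the missing-value sets as a block. Krt16, the stress keratin that wounded epidermis switches on, was the lower member, at -0.70, -0.27 and -1.07 in normal and -1.19, -2.13 and -0.97 in sham skin (difference -0.75 ± 0.29 (SE), adjusted p = 0.531). Sham array 2 held the lowest Krt16 level, and sham array 3 lay within the normal range. Sprr1b and S100a10, both components of the cornified or stressed epidermis, were above all normal arrays on all sham arrays, by 0.51 ± 0.25 (SE) and 0.36 ± 0.18 (SE).

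Selp and some chemokine genes were above normal skin on all 3 sham arrays. Selp, the P-selectin by which vessel walls catch leukocytes, had levels of 1.15, 1.35 and 0.90 in normal and 2.10, 1.97 and 2.15 in sham skin. The difference was 0.94 ± 0.19 (SE) with an adjusted p of 0.196. Pecam1, a marker of all endothelium, differed by 0.56 ± 0.30 (SE), and its groups overlapped. Of 17 blood endothelium genes, 2 were higher and 1 lower at an unadjusted p under 0.05, near the 5.54% and 2.38% of all genes. Ccl9, a chemokine of the macrophage inflammatory protein family, stood at 0.0075, -0.35 and 0.49 and at 1.004, 0.80 and 1.02 (difference 0.89 ± 0.24 (SE), adjusted p = 0.343). Its neighbour in that family, Ccl6, differed by 0.72 ± 0.20 (SE) (adjusted p = 0.343), with no overlap between groups. Ccl20 and Ccl19, which draw cells bearing Ccr6 and Ccr7, differed by 0.53 ± 0.19 (SE) and 0.48 ± 0.18 (SE). Of 31 chemokine, cytokine and receptor genes, 5 were higher and 1, Csf2, was lower at an unadjusted p under 0.05. The shares over all genes, 5.54% and 2.38%, apply to this list and to the Toll-like receptor list below. Myd88, the adaptor of most Toll-like receptors, had levels of 0.91, 1.22 and 1.38 and 2.22, 1.96 and 1.79 (difference 0.82 ± 0.21 (SE), adjusted p = 0.297). Run-centred, its differences on the 3 sham arrays were 1.04, 0.16 and 0.46. Of 18 measured members of the Toll-like receptor pathway, 3 were higher at an unadjusted p under 0.05, the others being Tlr2, a receptor of bacterial lipoproteins, at 0.41 ± 0.18 (SE) and Lbp, which carries lipopolysaccharide to Cd14, at 0.60 ± 0.27 (SE). Medians of this list on the 3 sham arrays were 0.23, 0.14 and 0.24, but 0.038, 0.036 and 0.11 run-centred. After run-centring 2 members were higher and 1 lower at that unadjusted p.

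Immediate early genes, which cells switch on within minutes of a stimulus, included some that were higher on every sham array. Egr1, a zinc finger transcription factor, stood at 0.88, 0.41 and 0.22 in normal and at 1.60, 1.68 and 1.20 in sham skin (difference 0.99 ± 0.22 (SE), adjusted p = 0.216). Btg2, an antiproliferative gene of the same class, differed by 0.95 ± 0.28 (SE), with levels of 2.15, 1.80 and 1.21 on the sham arrays against 0.77, 0.71 and 0.84 on the normal ones. Fos and Ier2 differed by 0.47 ± 0.17 (SE) and 0.52 ± 0.19 (SE). These 4 genes and the chaperones Hspa5 and Hspa8 made up the 6 of 26 list members that were higher at an unadjusted p under 0.05, while 0 were lower. Over all genes 5.54% were higher and 2.38% lower. With the missing-value sets as a block the difference of Hspa8 was -0.0036 in place of 0.41. The list median was 0.30, 0.21 and 0.28 on the 3 sham arrays. On the lymphedema arrays Egr1 had levels of 0.82, 0.57 and 0.44, and lymphedema minus sham was -0.88 ± 0.22 (SE) with an adjusted p of 0.442.

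Cd160, a receptor of natural killer and T cells, had the lowest adjusted p of all genes, together with Hbb-y. Its levels were 0.68, 0.56 and 0.35 in normal skin and 2.46, 1.87 and 1.92 in sham skin, a difference of 1.55 ± 0.22 (SE) with an adjusted p of 0.107. Run-centred, the difference was 1.48 and the adjusted p 0.0204. The lymphedema arrays stood at 0.39, -0.24 and -0.007, so that every sham value exceeded every other value of this clone. Lymphedema minus sham was -2.04 ± 0.22 (SE) (adjusted p = 0.0121). The 9 measured genes of T, B and NK lymphocytes had medians of 0.021, -0.11 and -0.20 on the sham arrays. At an unadjusted p under 0.05, 1 of them, Cd8a, was higher and 0 were lower, near the 5.54% and 2.38% of all genes. Gtf3c3, a subunit of the RNA polymerase III factor TFIIIC, and Nudt7, a peroxisomal hydrolase of coenzyme A, were also well apart, by 1.75 ± 0.34 (SE) and 1.31 ± 0.35 (SE).

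Genes lower on all 3 sham arrays were fewer. Fap, fibroblast activation protein, a surface protease of activated stromal cells, had levels of 0.37, 0.14 and 0.58 in normal and -0.52, -1.33 and -1.32 in sham skin. The difference was -1.42 ± 0.24 (SE) with an adjusted p of 0.193, and run-centred -1.65 with an adjusted p of 0.0175. Ciart, a repressor within the circadian clock, stood at 1.21, 1.90 and 2.08 and at 0.67, 0.14 and -0.14 (difference -1.51 ± 0.26 (SE), adjusted p = 0.193). Its lower values were not accompanied by the other clock genes, of which Nr1d2 differed by 0.49 ± 0.21 (SE) and Arntl by -0.19 ± 0.22 (SE). The hour at which tails were collected is not given in the sources used here. Kcnj12, an inward rectifier potassium channel, differed by -1.77 ± 0.43 (SE), but by 0.11 with the missing-value sets as a block.

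The other genes with the lowest differences were each measured by 1 clone. Wfdc15a, a small protease inhibitor, stood at 1.42, 1.34 and 1.57 in normal and -1.03, -1.27 and 0.083 in sham skin (difference -2.18 ± 0.54 (SE), adjusted p = 0.297). Nanog, a pluripotency factor of early embryos, differed by -1.37 ± 0.27 (SE), and Slc39a4, a zinc importer, by -1.36 ± 0.30 (SE). Cideb, a lipid droplet protein, had differences of -1.65, -1.99 and -0.38 on the 3 sham arrays, smallest on array 3. Garem1, an adaptor of growth factor receptors, differed by -1.39 ± 0.48 (SE), but by 0.46 with the missing-value sets as a block. The clone 9530059O14Rik, Zmynd19, the potassium channel gene Kcnd2 and the synaptic gene Unc13c completed the 12 lowest, with differences of -1.84 to -1.19. Mki67, the proliferation marker, differed by -0.67 ± 0.20 (SE) (adjusted p = 0.386), with levels of -2.08, -2.12 and -2.20 against -1.85, -1.13 and -1.44. Tk1 and Gmnn, which S phase cells express, were higher by 0.50 and 0.64, and the 41 cell cycle genes had medians of 0.054, 0.02 and 0.15.

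**Figure D2:**
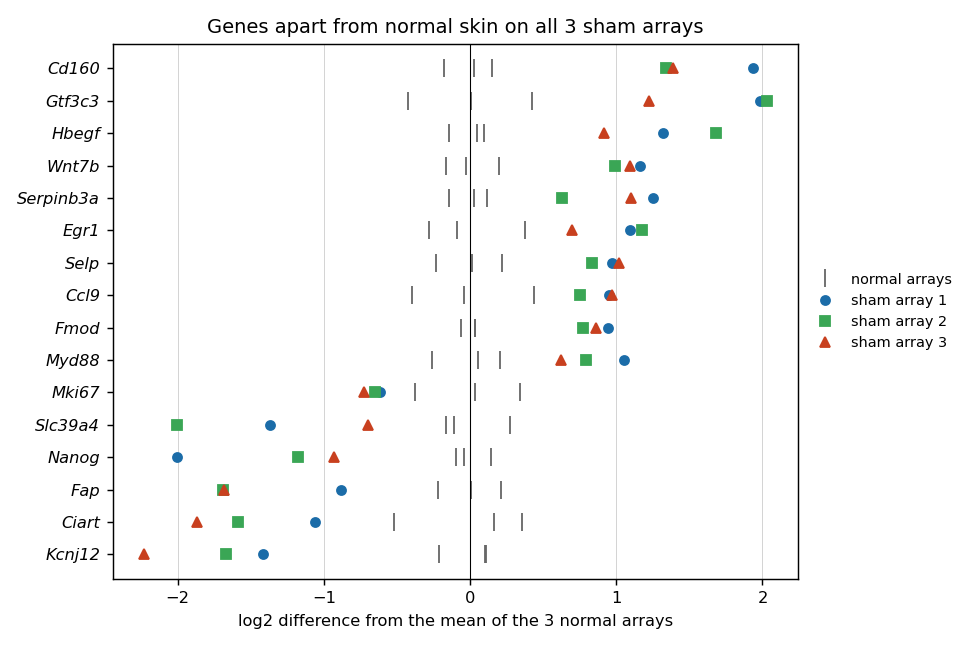
Log2 difference from the mean of the 3 normal arrays (x axis) for 16 genes described in the text whose sham and normal arrays did not overlap, with vertical ticks for the 3 normal arrays and coloured symbols for sham arrays 1, 2 and 3. Cd160 differed by 1.93, 1.34 and 1.39 on the 3 sham arrays and Kcnj12 by -1.42, -1.67 and -2.23.

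Many matrix genes were higher in sham skin, and here sham array 3 exceeded the other pools. Of 31 glycoproteins and proteoglycans, 13 were higher and 0 lower at an unadjusted p under 0.05, beside 5.54% and 2.38% of all genes. List medians were 0.31, 0.11 and 0.86. Fbln1, a fibulin of elastic fibres and basement membranes, had levels of 1.51, 1.58 and 1.65 in normal and 2.72, 2.35 and 3.13 in sham skin (difference 1.15 ± 0.23 (SE), adjusted p = 0.196). Fmod, a small proteoglycan that orders collagen fibrils, stood at 0.53, 0.43 and 0.53 and at 1.44, 1.27 and 1.36 (difference 0.86 ± 0.18 (SE), adjusted p = 0.21). Run-centred, the 3 sham arrays differed by 0.72, 0.15 and 1.56 for Fbln1 and by 0.76, 0.16 and 0.96 for Fmod, so that sham array 2 lay close to normal skin. Fn1, fibronectin, the main protein of the provisional wound matrix, differed by 1.31, 0.34 and 1.70 on the 3 arrays. Bgn, biglycan, differed by 0.88, 0.56 and 1.97, and Lama4 and Lamc1, laminin chains of vessel and other basement membranes, by 0.77 ± 0.22 (SE) and 0.56 ± 0.19 (SE) on average.

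Collagens behaved like the glycoproteins on sham array 3 and not on sham array 2. The 25 collagen and collagen-processing genes had medians of 0.30, -0.06 and 0.77, with 21 above all normal arrays on sham array 3, 14 on sham array 1 and 8 on sham array 2, where 10 were below. Over all genes 35.9%, 44.4% and 39.3% lay above the normal arrays on sham arrays 3, 1 and 2, so that only the count on sham array 3 was well above that share. Col4a2, a chain of basement membrane collagen, P4hb, a subunit of the prolyl hydroxylase, and Col18a1 were higher on all 3 arrays, by 0.71 ± 0.24 (SE), 0.44 ± 0.18 (SE) and 0.45 ± 0.18 (SE). Col1a1, the main fibrillar collagen chain, had differences of 0.26, 0.32 and 1.62, and Lox, which crosslinks collagen, of 0.14, 0.63 and 1.91. Both were largest on sham array 3. Of 20 proteases and inhibitors, 5 were higher and 0 lower at an unadjusted p under 0.05, beside 5.54% and 2.38% of all genes. The 5 were Serpinf1, a secreted protein of the serpin family, and the lysosomal proteases Ctsb, Ctsk, Lgmn and Ctsl. Ctsb, cathepsin B, had levels of 0.10, -0.0098 and 0.048 in normal and 0.66, 0.47 and 0.56 in sham skin (difference 0.51 ± 0.17 (SE), adjusted p = 0.44).

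Genes of the cytoskeleton had a median above that of all genes on every sham array. Of 44 genes of the nonmuscle actin cytoskeleton, 15 were higher and 0 lower at an unadjusted p under 0.05 (all genes 5.54% and 2.38%). In this list 21 genes had all sham arrays above all normal arrays, beside 9.72% of all genes. The medians were 0.29, 0.20 and 0.63. Tpm4, a tropomyosin of nonmuscle cells, had levels of -0.62, -0.23 and 0.066 and 0.82, 0.69 and 0.56 (difference 0.95 ± 0.21 (SE), adjusted p = 0.223). Msn, moesin, which ties actin to the membrane, differed by 0.81 ± 0.22 (SE), the thymosin Tmsb4x by 0.58 ± 0.17 (SE), and Vcl, vinculin of focal adhesions, by 0.50 ± 0.16 (SE). Run-centring left these 4 genes higher on all 3 sham arrays, with Msn on sham array 1 at 0.079. Myofibroblast and smooth muscle genes had medians of 0.26, -0.034 and 0.81. Acta2, smooth muscle actin, differed by 0.47, 0.16 and 1.05, highest on sham array 3.

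Some genes set sham array 3 apart from sham arrays 1 and 2. Among 5910 genes on which sham arrays 1 and 2 lay within 0.5 of each other and the normal arrays within 1, sham array 3 was over 1 above the mean of the other pair for 202 genes and over 1 below it for 133. These genes were chosen for that gap, so the values are a description with no test. Ptx3, a pentraxin released by leukocytes and fibroblasts in inflammation, had levels of -1.61, -1.30 and 2.03 on sham arrays 1, 2 and 3 and of -1.997, -1.74 and -1.31 on the normal arrays. Tnc, tenascin C, an adhesion-modulating protein of wound matrix, stood at -1.44, -1.43 and 1.29 against -1.89, -2.11 and -2.005. Cd14, the lipopolysaccharide coreceptor of monocytes, stood at 0.53, 0.89 and 3.10 against 0.54, 0.72 and 0.98. In all 3 genes sham array 3 lay far above the other 5 sham and normal arrays, which stayed close together. Run-centred, Tnc differed from normal skin by 1.23, 0.82 and 3.11 on the sham arrays. Ptx3 then differed by -0.29, 0.036 and 4.10 and Cd14 by 0.26, 0.36 and 2.01. The lymphedema arrays stood at 1.31, 1.08 and 0.67 for Ptx3, -0.02, 0.48 and 1.15 for Tnc and 1.31, 2.42 and 2.38 for Cd14, also above the normal arrays.

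The extreme held other genes of leukocytes and stroma. Mmp9, a gelatinase of neutrophils and macrophages, differed from normal skin by -0.33, -0.44 and 2.01, and Srgn, the proteoglycan of leukocyte granules, by 0.11, 0.29 and 2.45. Fcer1g, the common Fc receptor chain of myeloid cells, differed by 0.59, 0.11 and 2.18, and Lgals1, galectin 1 of stromal cells, by 0.24, 0.27 and 2.03. Srpx2, a secreted sushi repeat protein, differed by -0.16, -0.041 and 1.70. Run-centred, Srpx2 differed by 0.52, 0.21 and 1.52 and Mmp9 by 0.41, -0.064 and 1.91. Rita1, a repressor of Notch signaling, reached the list in another way, being lower on sham arrays 1 and 2 and near normal on array 3 (-1.66, -1.74 and 0.084), and the predicted gene Gm10754 differed by -0.71, -1.09 and 0.94.

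The genes lowest on sham array 3 relative to the other sham arrays included genes of differentiated epidermis and hair. Krtap4-6, a hair keratin-associated protein, stood at 3.54, 3.95 and 1.87 against 4.03, 3.10 and 4.06 in normal skin. Cyp2b19, an arachidonic acid epoxygenase of upper epidermis, stood at 2.73, 2.72 and 1.26 against 2.23, 2.56 and 2.77, and Pou2f3, a transcription factor of suprabasal keratinocytes, at 3.64, 3.27 and 1.61 against 1.99, 2.96 and 2.70. St3gal5, a ganglioside synthase, and Nr4a2, an immediate early nuclear receptor, were higher than normal on sham arrays 1 and 2 and below the lowest normal array on array 3, with differences of 1.67, 1.72 and -0.66 and 0.94, 1.16 and -0.48. Psapl1, a saposin-like protein, differed by 0.70, 0.21 and -1.02, and the other genes at this extreme were 2310001H17Rik, Cdkn2aip, Fam71f1 and Trim44. Run-centred, the gap of sham array 3 from the mean of the other pair shrank for part of these genes. It was -0.91 for Nr4a2, -0.82 for Psapl1 and Fam71f1, -0.81 for Cyp2b19 and -0.71 for Trim44. For Krtap4-6, St3gal5, 2310001H17Rik, Cdkn2aip and Pou2f3 it was -1.84, -1.75, -1.72, -1.34 and -1.24.

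**Figure D3:**
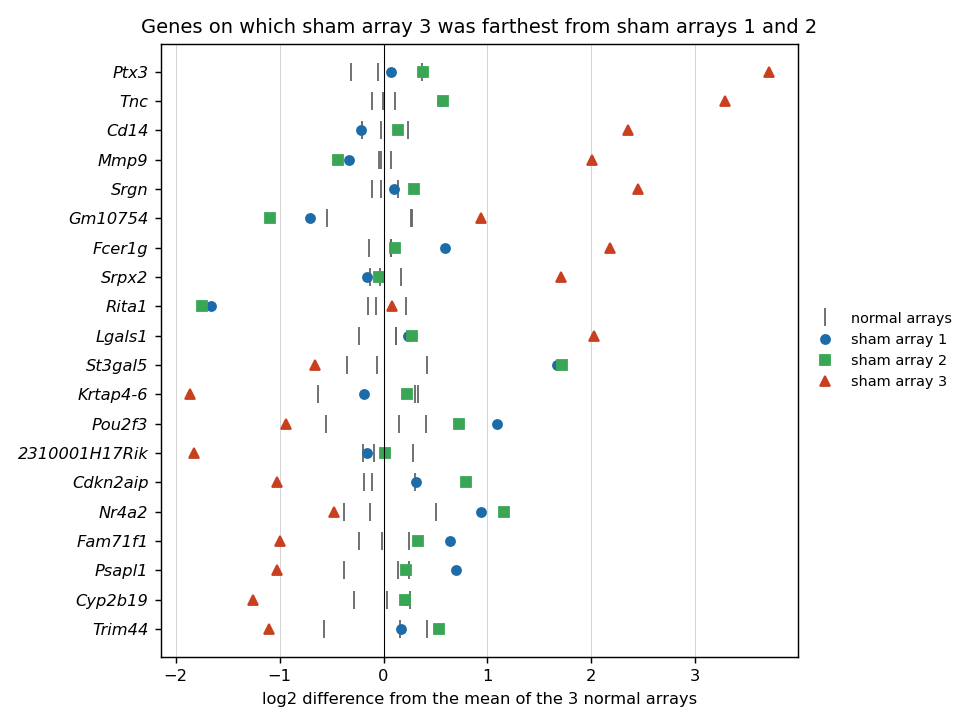
Log2 difference from the mean of the 3 normal arrays (x axis) for the 10 genes highest and the 10 lowest on sham array 3 relative to the mean of sham arrays 1 and 2, with ticks for normal arrays and coloured symbols for sham arrays. These genes were chosen for the gap shown, which for Ptx3 reached 3.48 and for St3gal5 -2.36.

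Alarmins and stefins, small proteins that neutrophils and stressed keratinocytes release, had medians above that of all genes in all sham pools, most of all in pool 3. List medians over 12 genes were 0.48, 0.45 and 1.03. At an unadjusted p under 0.05, 6 genes were higher and 0 lower, beside 5.54% and 2.38% of all genes. S100a8, a calgranulin subunit, had levels of -1.03, -0.93 and -0.58 in normal and -0.078, -0.067 and 1.08 in sham skin (difference 1.16 ± 0.29 (SE), adjusted p = 0.297). Its partner S100a9 stood at -2.33, -2.09 and -1.70 and at -1.54, -0.62 and 1.996, so that sham array 3 was 4.03 above normal skin and sham array 1 by 0.49. The stefins Stfa3 and Stfa1, cysteine protease inhibitors of myeloid cells, differed by 0.91, 0.96 and 1.87 and 0.70, 0.71 and 1.56. Lcn2, lipocalin 2, which binds bacterial siderophores, differed by 0.15, 1.12 and 2.40. Of 9 neutrophil genes, which include S100a8, S100a9 and Lcn2, all 9 had a mean difference above 0, as did 5155 of all 8644 genes. At an unadjusted p under 0.05, 4 were higher and 0 lower, beside the same shares of all genes as for the alarmins. The list medians were 0.46, 0.36 and 0.59, closer to each other than those of the alarmins. Run-centred, the neutrophil medians were 0.41, -0.00275 and 0.495, beside 0.34, 0.44 and 0.89 for the alarmins. Sham array 2 then showed no rise of the neutrophil list, and both lists were spread about alike. Camp, the cathelicidin of neutrophil granules, completed the 4 higher neutrophil genes, at 0.50 ± 0.19 (SE) with no overlap between groups. Ltf, lactoferrin, differed by 0.072 ± 0.25 (SE) and Cxcr2, a chemokine receptor, by 0.34 ± 0.34 (SE).

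Macrophage genes separated the pools most, with an SD of 0.60 between the 3 list medians, the highest of 41 lists. The 23 genes measured had medians of 0.47, 0.086 and 1.26, with 19 above all normal arrays on sham array 3, 16 on sham array 1 and 6 on sham array 2, beside 35.9%, 44.4% and 39.3% of all genes. On sham array 2 this was fewer than the share of all genes gives. Run-centred medians were 0.36, 0.11 and 1.11. Lyz2, lysozyme of myeloid cells, had differences of 0.92, 0.39 and 1.91, Clec4n, dectin 2, of 1.05, 0.37 and 1.62, and Ms4a6b, a tetraspan protein of macrophages and T cells, of 0.90, 0.46 and 2.65. Among the defining markers, Adgre1 (F4/80) differed by 0.41, -0.48 and 0.75, Cd68 by -0.078, 0.065 and 0.62 and Csf1r, the receptor of the macrophage growth factor, by 0.47, -0.39 and 0.17. Ly6c1, a Ly6 surface antigen, was above all normal arrays in every sham pool (0.87, 0.71 and 0.48). MHC class II genes followed, with list medians of 0.54, 0.0069 and 0.86. H2-Aa, a class II chain, had levels of 3.28, 4.18 and 4.69 in normal and 5.91, 4.64 and 5.32 in sham skin, overlapping on sham array 2, and H2-Eb1 differed by 0.77 ± 0.24 (SE) with no overlap.

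Complement and interferon genes gave smaller differences. The 12 complement genes had medians of 0.18, -0.046 and 0.69. Serping1, the inhibitor of C1, had levels of 1.25, 0.997 and 1.67 in normal and 2.29, 2.34 and 1.98 in sham skin (difference 0.90 ± 0.21 (SE), adjusted p = 0.284), while C1qa, a chain of C1q made by macrophages, differed by 1.02, 0.15 and 1.73. C1s1 differed by 0.69 ± 0.30 (SE), but by -0.18 with the missing-value sets as a block. The 15 interferon response genes had medians of 0.28, 0.0022 and 0.59, and for the mean of the arrays a median of 0.24 that the missing-value block turned to -0.029. Ifitm1, a membrane protein that blocks virus entry, stood at -0.26, -0.28 and -0.52 and at 0.44, 0.48 and 1.28 (difference 1.09 ± 0.24 (SE), adjusted p = 0.216), and Irf1, a transcription factor of the same pathway, differed by -0.58 ± 0.24 (SE). B2m, the light chain of MHC class I, differed by 1.02, 0.61 and 1.53.

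Many skeletal muscle genes were higher on sham array 3, fewer on array 2, and on array 1 their median lay below that of all genes. Of 30 measured, 11 were higher and 1, Xirp1, was lower at an unadjusted p under 0.05, beside 5.54% and 2.38% of all genes. List medians were 0.0098, 0.28 and 0.82, with 16, 19 and 29 genes above the normal mean. Of all 8644 genes, 5065, 4967 and 4761 lay above it on these arrays. Tnnc2, fast troponin C, had levels of -5.42, -5.53 and -5.96 in normal skin and -4.96, -3.58 and -2.90 in sham skin (difference 1.83 ± 0.45 (SE), adjusted p = 0.297). Trdn, triadin of the calcium release unit, and Smpx, a small costamere protein, differed by 0.48, 0.91 and 1.09 and 0.79, 0.54 and 0.81. Csrp3, muscle LIM protein, which was not in the list, stood at -4.005, -4.58 and -5.30 and at -3.71, -2.69 and -1.86, and Tcap, the titin cap, at -1.04, -2.04 and -2.30 and at -0.70, -0.50 and 0.67. Myl1, a fast myosin light chain, and Srl, sarcalumenin of the sarcoplasmic reticulum, differed by 0.46, 1.39 and 2.63 and 0.48, 2.22 and 1.43. Not all fibre genes shared these values, since Xirp1, an actin-binding protein of the myotendinous junction, had differences of -1.70, -0.55 and -0.13 and skeletal actin Acta1 of 0.43, 0.021 and 0.98. Run-centred, sham array 1 differed by -0.025 for Tnnc2, 0.048 for Myl1 and -0.028 for Srl. Sham and normal arrays then overlapped for Tnnc2, Myl1, Srl, Csrp3 and Tcap. On the lymphedema arrays Tnnc2 stood at -5.57, -5.65 and -4.60 and Csrp3 at -5.06, -5.44 and -4.08. Lymphedema minus sham was -1.46 ± 0.45 (SE) for Tnnc2 (adjusted p = 0.505) and -2.11 ± 0.48 (SE) for Csrp3 (adjusted p = 0.416). Muscle and cartilage lie under the skin that was dissected, and the 16 cartilage, bone and tendon genes had medians of -0.17, -0.12 and 0.37, with Col2a1, the collagen of cartilage, at -0.51, -0.28 and 0.67. The part of the dissection in these values was not tested.

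C1qtnf3, a secreted protein of fat and cartilage, had the largest mean difference among genes whose groups did not overlap and whose unadjusted p was under 0.05, but not on every array. Its levels were -4.87, -4.73 and -4.72 in normal skin and -4.42, -1.35 and -1.94 in sham skin, so that sham array 1 lay 0.35 from the normal mean and arrays 2 and 3 lay 3.42 and 2.84 from it. The mean difference was 2.20 ± 0.60 (SE) with an adjusted p of 0.343, and without sham array 1 it was 3.13 with an adjusted p of 0.0026.

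Hair genes were the list with the lowest median of the 41. The 14 measured had medians of -0.65, -0.14 and -1.20. Above the normal mean were 0 members on sham array 3 and 6 on sham array 2, beside 4761 and 4967 of all 8644 genes. At an unadjusted p under 0.05, 5 were lower and 0 higher, beside 2.38% and 5.54% of all genes. Krtap13 and Krtap3-3, matrix proteins of the hair shaft, had levels of 1.79, 2.16 and 1.36 and 4.80, 4.79 and 4.55 in sham skin against 2.75, 2.63 and 2.64 and 5.38, 5.62 and 5.18 in normal skin. Their differences were -0.90 ± 0.22 (SE) and -0.68 ± 0.17 (SE), with no overlap between groups. Krt33a, a hair keratin, and S100a3, a calcium-binding protein of the hair cuticle, differed by -0.071, -1.01 and -1.47 and -0.51, -0.91 and -1.06. Tchh, trichohyalin of the inner root sheath, was lower on sham arrays 1 and 3 and higher on array 2 (-0.83, 0.81 and -1.88), a split that Krtap8-1 and Krt86 shared.

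Other epidermal and gland lists had medians above normal skin in some pools and below it in others. Suprabasal and cornified envelope genes had medians of 0.35, 0.30 and -0.37. At an unadjusted p under 0.05, 0 of 12 were higher and 0 lower, beside 5.54% and 2.38% of all genes. In so short a list this count does not stand apart from those shares. Krt10, the main suprabasal keratin, differed by 0.34, 0.39 and -0.44, and Krt5 and Krt14, the basal keratins, by 0.70, -0.10 and -0.026 and -0.39, -0.13 and 0.93. Sebaceous gland genes had medians of 0.036, 0.20 and -0.65, with Fa2h, which makes hydroxylated fatty acids of sebum, at 6.57, 7.08 and 6.94 in normal and 6.85, 5.94 and 5.15 in sham skin. Cholesterol synthesis genes had medians of 0.40, 0.22 and -0.32, with 10 and 9 of 12 above all normal arrays on sham arrays 1 and 2 and 1 on sham array 3, beside 44.4%, 39.3% and 35.9% of all genes. Cytosolic ribosomal proteins showed the same opposition, with 48 and 42 of 61 above all normal arrays on sham arrays 1 and 2 and 35 below them on sham array 3, where 27.7% of all genes lay below. Run-centred, their medians shrank from 0.29, 0.13 and -0.14 to 0.13, 0.074 and -0.09.

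**Figure D4:**
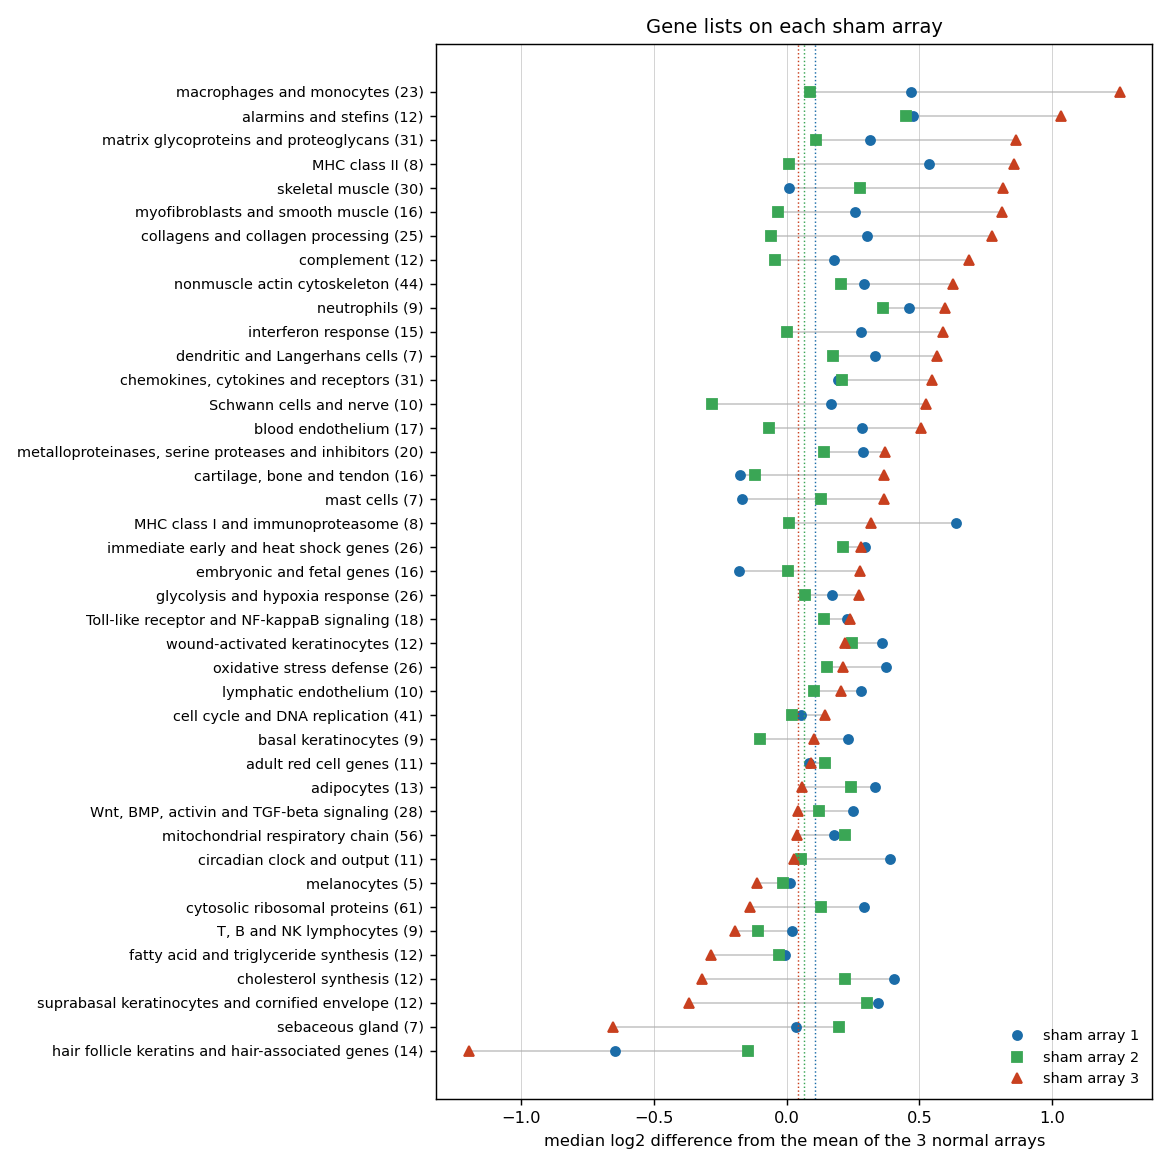
Median log2 difference from the mean of the 3 normal arrays (x axis) of 41 gene lists, with the number of measured genes in parentheses, on sham arrays 1, 2 and 3 (symbols) and over all genes (dotted lines). Macrophage genes reached 1.26 on sham array 3 and hair genes -1.20, while immediate early and wound-activated keratinocyte genes had like medians on all 3 arrays.

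**Figure D5:**
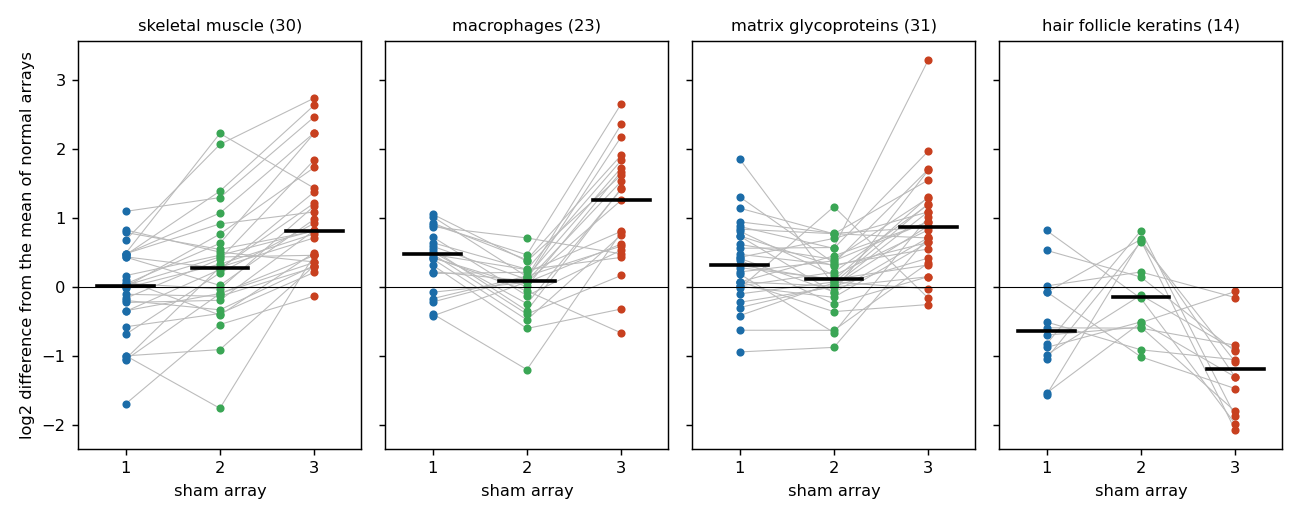
Log2 difference from the mean of the 3 normal arrays (y axis) of each measured gene of 4 lists on sham arrays 1, 2 and 3 (x axis), with thin lines joining the values of 1 gene and thick bars at the list medians. Skeletal muscle medians were 0.0098, 0.28 and 0.82, and hair medians -0.65, -0.14 and -1.20.

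Metabolic and stress defense genes had small positive medians, 2 of which came close to 0 when the missing-value sets were a block. With those sets as a block, the median of oxidative stress defense was 0.023 in place of 0.19 and that of the respiratory chain 0.016 in place of 0.14, while that of glycolysis was 0.17 in place of 0.21. Of 26 genes of oxidative stress defense, 5 were higher and 0 lower at an unadjusted p under 0.05. All sham arrays lay above all normal arrays for 8 of them, beside 9.72% of all genes. For this list and those that follow, 5.54% of all genes were higher and 2.38% lower at that unadjusted p. Gpx1, a glutathione peroxidase, differed by 0.47 ± 0.17 (SE), Sod3, the secreted superoxide dismutase, by 0.72 ± 0.28 (SE), and the ferritin chains Fth1 and Ftl1 by 0.53 ± 0.23 (SE) and 0.57 ± 0.25 (SE). Of 26 genes of glycolysis and the hypoxia response, 4 were higher and 1 was lower, with Ndrg1, a gene that hypoxia induces, at 0.59 ± 0.17 (SE) and Ldha, lactate dehydrogenase, at 0.49 ± 0.18 (SE). The 56 respiratory chain genes had medians of 0.18, 0.22 and 0.039, with 11 above all normal arrays on every sham array, beside 9.72% of all genes. Of 28 genes of Wnt, BMP, activin and TGF-beta signaling, 4 were higher and 0 lower, among them Wnt6, a further epidermal Wnt ligand, at 0.52 ± 0.17 (SE) and Tgfbr1, a TGF-beta receptor, at 0.66 ± 0.26 (SE).

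With the missing-value sets as a block, some lists had medians nearer to 0 for the mean of the arrays, and others had medians farther from it. The median was 0.26 in place of 0.47 for matrix glycoproteins, 0.18 in place of 0.35 for collagens, and 0.37 in place of 0.54 for macrophage genes. That of the hair genes was -0.27 in place of -0.68. Alarmins, at 0.55 in place of 0.56, and skeletal muscle, at 0.34 in place of 0.41, moved less. Farther from 0 were MHC class II, at 0.79 in place of 0.49, and complement, at 0.39 in place of 0.23. The neutrophil median also rose, to 0.47 in place of 0.41.

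Lymphatic endothelium is of interest because the sham left the trunks in place. Its 10 genes had medians of 0.28, 0.10 and 0.21 on the sham arrays, and 3 were higher and 0 lower at an unadjusted p under 0.05, beside 5.54% and 2.38% of all genes. Run-centred, 1 was higher and 1 lower, and the medians were 0.12, 0.0082 and 0.10. For the mean of the arrays the list median was 0.082, beside 0.058 over all genes. With the missing-value sets as a block it was 0.24, beside 0.020 over all genes. Stab1, a scavenger receptor shared with macrophages, differed by 0.65 ± 0.27 (SE) with no overlap, and Nrp2, a coreceptor of Vegfc, by 0.56 ± 0.24 (SE). Vegfc, the main lymphatic growth factor, differed by 0.089 ± 0.20 (SE). Foxc2, a transcription factor of collecting lymphatics, had differences of 0.12, 0.76 and 0.98, with sham array 1 inside the normal range.

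Of 11 red cell, 5 melanocyte, 13 adipocyte and 11 circadian genes, 1, 0, 2 and 1 were higher at an unadjusted p under 0.05. In the same order 1, 0, 0 and 1 were lower, beside 5.54% higher and 2.38% lower over all genes. These counts are too small to set the lists apart from those shares. Adult red cell genes had medians of 0.084, 0.14 and 0.091 on the 3 arrays and of -0.043 for the mean of the arrays, a sign that several alternatives turned, and Hba-a1, adult alpha globin, differed by 0.17 ± 0.31 (SE), unlike the embryonic globin clones. Melanocyte, adipocyte and circadian lists had medians of 0.011, -0.015 and -0.11, of 0.33, 0.24 and 0.057 and of 0.39, 0.056 and 0.029. Quantile normalisation turned the sign of the median of the mean differences for the basal and suprabasal keratinocyte, lymphatic endothelium, cholesterol synthesis, embryonic and cell cycle lists, and run-centring turned it for the suprabasal list. Of all 41 lists, 34 had a median above 0 for the mean of the sham arrays. The median over all genes was itself 0.058, or -0.0042 after quantile normalisation, and 5155 of 8644 genes lay above 0.

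Of the 9 arrays, sham array 3 changed the number of calls most when it was left out. Without it, 78 features passed (31 higher, 47 lower) and 12 genes did, against 6 and 0 with all arrays. Sham array 3 had been singled out beforehand as unlike sham arrays 1 and 2, so leaving it out favours more calls by choice. These calls are therefore given as a description only, and they were not repeated after run-centring. The 4 higher genes were Cd160, Fgl2, Hbb-y and Hbegf. The 8 lower genes were Cideb, Cnn2, Dctd, Lhb, Oas1c, Rita1, Slc39a4 and Spaca9, named after their values were seen where they were not described above. Fgl2, a prothrombinase-like protein of leukocytes, differed by 1.32 ± 0.19 (SE) between sham arrays 1 and 2 and normal skin (adjusted p = 0.0314). Cnn2, calponin 2, differed by -2.09 ± 0.30 (SE) with the same adjusted p, and its difference on sham array 3 was -0.068. Without sham array 1, the genes that passed were C1qtnf3 and Fap, and without sham array 2 there were 0 (678 at an unadjusted p under 0.05). With 2 sham pools, the spread is taken from the other groups as well.

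The genes the study measured by qRT-PCR in lymphedema gave mixed values here. S100a8, S100a9 and Myd88 are described above. Mmp14, a membrane metalloproteinase, differed by -0.24, -0.43 and 0.85, Cdh11, a stromal cadherin, by -0.27 ± 0.20 (SE), Clu, clusterin, by 0.019 ± 0.20 (SE) and Hsd17b10 by 0.078 ± 0.19 (SE). Mmp3 was named by 1 feature, which lacked a value on at least 1 of the 9 arrays and was not tested. Beside the sham medians, those of the lymphedema arrays, which share the normal arrays, were 0.84, 1.08 and 1.21 for alarmins, 1.16, 0.89 and 1.14 for macrophage genes, 0.68, 0.70 and 0.82 for matrix glycoproteins, 0.42, 0.12 and -0.33 for hair genes and 0.12, 0.018 and 0.033 for immediate early genes.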

How the data were processed

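Tail skin of 3 sham, 3 normal and 3 lymphedema pools was hybridised against embryo RNA on 2-colour cDNA arrays. To make the deposited log2 ratios, the authors extracted features with GenePix 4.0, subtracted background and normalised the dyes in Expressionist. The base of the logarithm is not stated and was read as 2 from the size of the values. The number of arrays limits the precision, and 0 columns of values lacked a sample. The authors' own comparisons were not used.

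Signs were turned and each array was centred on its median. Of 42624 features, 30702 had values on all 9 arrays, and clones with 1 gene symbol were averaged into 8644 genes. Sham was compared with normal by limma 3.58.1 (R 4.3.3; lmFit, eBayes) over all 9 arrays, with Benjamini-Hochberg adjustment at 0.05, and the test was checked on simulated data. Adjusted p-values in the report come from this fit or, where named, from an alternative. Named genes were the features that passed, the 12 highest and 12 lowest non-overlapping genes at an unadjusted p under 0.05, up to 6 members of each list by moderated t with defining markers, the 10 genes at each extreme of sham array 3, the genes that passed after run-centring, and the qRT-PCR genes. The members and lists were chosen with earlier results of these data known. Alternatives covered centring, scaling, missing values, blocks, SAM and each array left out. Run-centring and the non-overlap counts with 2 sham arrays were added after seeing the data.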

Additional observations from a re-analysis of the deposited data

How the results depend on the processing

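The number of features that passed was 6, with 0 genes, and both moved with the processing. Features that passed numbered 3 without centring, 2 after scaling to 1 median absolute deviation, 0 after quantile normalisation (2205 at an unadjusted p under 0.05), 0 with at least 2 of 3 values per group (3011), 0 with the missing-value sets as a block (1378), 0 after run-centring (3236), and 11 and 439 by SAM at 5% and 25%. With the replicate block 13 features passed and 0 genes (646). Sham and normal arrays of 1 number deviated at r = -0.012, 0.098 and -0.18, so the numbers were not taken to pair the pools. Genes that passed numbered 1 over features on all 6 sham and normal arrays, and 3 both with 1 clone per gene and after run-centring. Leaving out 1 array gave 0 to 78 features, with 0 for each normal array (1491, 1571 and 2253 at an unadjusted p under 0.05) and for sham array 2 (2213). It gave 0 to 12 genes. Non-overlapping genes numbered 1107 with all arrays and 1782 to 3236 with 1 sham array left out, where fewer arrays have to be apart.

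With the missing-value sets as a block, the sign turned for C1s1 (-0.18), Cd44 (-0.015), Garem1 (0.46), Hspa8 (-0.0036) and Kcnj12 (0.11), and, by more than the SD between sham arrays, for the medians of fatty acid synthesis (0.084), adult red cell (0.17), circadian (-0.17), cell cycle (-0.14) and Wnt and BMP genes (-0.064). The adult red cell median, -0.043, was also 0.056 with at least 2 of 3 values, 0.076 with 1 clone per gene, and -0.066 to 0.15 with 1 array left out. The basal keratinocyte median, 0.099, was -0.092 to 0.18 with 1 array left out, the lowest without sham array 3. The cause was not tested. Of 272 genes examined, no other with an unadjusted p under 0.05 turned its sign under any of these alternatives. At 3 pools a group, the median SE of 0.22 limits what could be detected.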
